A study of Homo sapiens with 28 samples.

Results

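AN3CA cells expressing the ARID1B deletion A457_G461del were compared with AN3CA cells expressing wild-type ARID1B (ARID1B WT). The comparison takes 4 of the 28 libraries of polyadenylated RNA, 2 for each construct, chosen by the construct named in the labels. AN3CA is a human endometrial carcinoma line, and all groups used here were untreated cells of that line. The other groups set beside the comparison were the ARID1B deletions M2 (named S320_G327del in the labels), Block13del and Block9del, with 2 libraries each, and an empty vector with 4 libraries. ARID1A WT, also with 2 libraries, was used to choose genes in 1 comparison. The labels do not say which residues Block13del and Block9del lack, how the constructs were introduced, whether the expressing cells are clones, or whether replicates were separate cultures. The p-values thus take in no more than the spread among these libraries, possibly a technical one. Levels are given in CPM, the gene's reads scaled to a common library total, with standard deviations (n = 2). Adjusted p is from edgeR's quasi-likelihood F test with Benjamini-Hochberg adjustment. Log2 fold changes carry standard errors worked back from that test, as their size over the square root of F.

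ARID1A and ARID1B take the same place in the canonical BAF complex, which uses ATP to move nucleosomes and open chromatin at enhancers. Each carries an ARID domain that binds DNA and long disordered stretches in its N-terminal part. The series asks, by its title, about local condensation of this complex and transcriptional activation. In cells of the endometrium the complex is known for control of epithelial identity, and ARID1A is often mutated in endometrial cancer.

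A457_G461del removes 5 residues, or 15 bases of coding sequence. The bases are shown because the construct differs from ARID1B WT by this stretch, and those of M2 because it is the other short deletion. Of 21 coding ARID1B transcripts in the GENCODE annotation of GRCh38, 3 encode the residue letters of both deletion names at the named positions, and these 3 have the same sequence there. Both stretches lie in exon 1 of these transcripts on the plus strand, the first at chr6:156779298-156779312 and the second at chr6:156778887-156778910. The reference bases follow 5′ to 3′ with 30 bases on each side and the codons named by the deletion in capitals.
A457_G461del: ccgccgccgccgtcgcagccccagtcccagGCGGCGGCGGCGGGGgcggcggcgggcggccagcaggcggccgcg
M2: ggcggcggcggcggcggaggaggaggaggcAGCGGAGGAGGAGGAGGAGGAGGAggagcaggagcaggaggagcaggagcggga
The first window is 90.7% G and C and the second 75.0%, both are built of short repeats, and 129 residues separate the deletions. The bases of the constructs themselves were not analysed here.

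Depth was 24.5 to 25.5 M gene reads in the A457_G461del libraries and 18.9 to 22.1 M in the ARID1B WT libraries, within the range of 16.6 to 27.9 M reads of the series. The share of gene reads on the expected strand was 97.3% with A457_G461del and 98.4 to 98.5% with ARID1B WT, and each gene was therefore tested again with strand ignored. By that share the libraries fall into 3 sets, which the labels do not give. A457_G461del belongs to set 3 with Block13del, Block9del and the ARID1A constructs AQGscram and 42YS. ARID1B WT belongs to set 2 with M2, the ARID1A DDX4 hybrid and empty vector replicates 3 and 4. Reads that name no gene were 27.5 to 28.1% with A457_G461del and 22.5% with ARID1B WT. Set and construct cannot be told apart within these 4 libraries. As a measure of it, each gene was checked for whether the other 8 set 3 libraries all lay on 1 side of the other 6 set 2 libraries. That was so for 2.78% of genes with set 3 above and for 2.38% with set 3 below. To lie below, set 3 must also lie below empty vector replicates 3 and 4, which are of set 2. A gene near 0 in these libraries, such as ELN at 0.131 and 0.279 CPM, can hardly be counted so, whatever the part of set.

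The line held vimentin RNA (VIM, a mesenchymal filament gene) at 4430 to 4440 CPM with A457_G461del and 4730 to 4810 CPM with ARID1B WT. The epithelial genes EPCAM (0.204 to 0.330 CPM), CDH1 and PAX8 (at most 0.157 CPM) were near 0 in the 4 libraries. Other epithelial markers were read, with KRT18 at 21.0 to 48.0 CPM and the list summing to 34.6 to 36.1 CPM with A457_G461del and 85.0 to 87.9 CPM with ARID1B WT. Of 12 leukocyte markers 6 had no read in the 4 libraries, and the list summed to 4.16 to 4.39 CPM against 14.1 to 14.6 CPM, with only CD68 high enough to be tested. PTPRC and CD3D, which define leukocytes, had at most 0.0408 CPM. The fibroblast markers DCN and LUM had no read, although the list summed to 2770 to 2790 CPM with A457_G461del and 4000 to 4100 CPM with ARID1B WT, mostly COL1A2. In bulk RNA, fewer cells expressing a gene and less RNA per cell cannot be told apart.

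ARID1B itself was read at 2260 and 2213 CPM in the A457_G461del libraries and at 3438 and 3757 CPM in the ARID1B WT libraries. Both deletion libraries lay below both WT libraries, and all 4 far above the empty vector, which held 88.5 to 104 CPM. A457_G461del stood at 62.2% of ARID1B WT (log2 fold change -0.69 ± 0.09, adjusted p = 9.17e-06). M2 held 4250 ± 96.2 CPM, Block13del 883 ± 7.14 and Block9del 344 ± 0.277. The results below therefore compare constructs read at different levels, and the part of that difference in any result was not tested. ARID1A, the paralog, stood at 204 and 203 CPM against 203 and 225 CPM and did not pass the test (-0.07 ± 0.10, adjusted p = 0.623). The reads count construct and endogenous ARID1B together, and protein levels were not analysed here.

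Over all 14220 tested genes, 2071 (14.6%) were higher and 2145 (15.1%) lower with A457_G461del than with ARID1B WT. This near balance depended on the scaling, with 1853 higher and 2356 lower under RLE factors in place of TMM. Both libraries of one group lay beyond both of the other in 11048 of the 14220 genes (77.7%), whatever their call, so groups that do not overlap are common here. At least 2-fold, 221 (1.55%) were higher and 605 (4.25%) lower, so large differences were mostly falls. With strand ignored as well, 1967 (13.8%) were called higher and 2053 (14.4%) lower, of which 204 and 574 at least 2-fold. Requiring an average log2 CPM of at least 1 left 99 large rises and 254 large falls. Many of the large differences were thus of genes low on average over the series. The other set 3 and set 2 libraries differed the same way in 51 of the 221 large rises (23.1%) and in 24 of the 605 large falls (3.97%). Among all calls it was 261 of 2071 higher (12.6%) and 184 of 2145 lower (8.58%). All 4 shares exceed the 2.78% and 2.38% over all genes, most for the large rises. The 4216 calls dropped to 2769 without A457_G461del replicate 1 and to 2682 without its replicate 2. They dropped to 2592 without ARID1B WT replicate 2, and were 2841 without its replicate 1. The 826 large ones dropped to between 655 and 694.

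**Figure D1:**
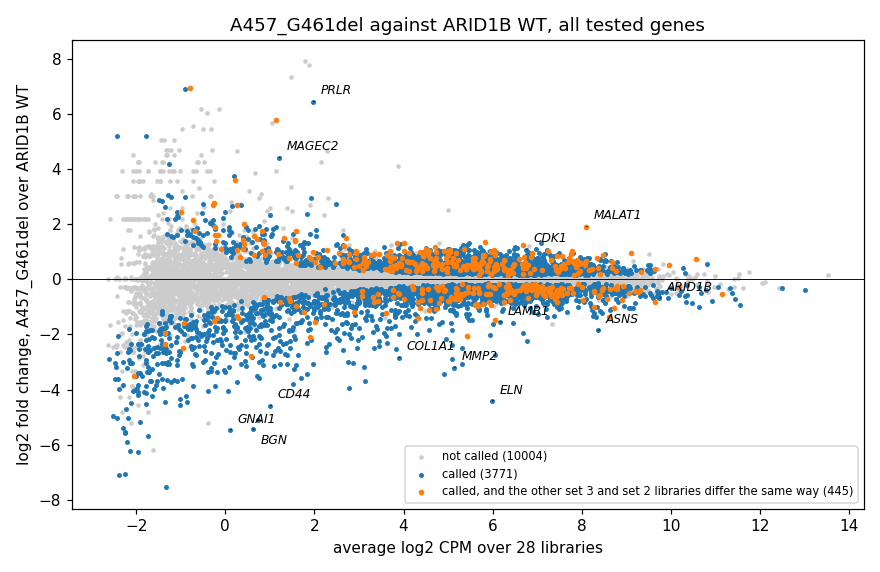
Each point is a gene, with its average log2 CPM over the 28 libraries on the x axis and the log2 fold change of A457_G461del over ARID1B WT on the y axis. Blue and orange genes passed the test, and in the 445 orange genes the other set 3 and set 2 libraries, which are not in the comparison, differed the same way. Large falls such as ELN, CD44 and BGN outnumber large rises.

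Genes of the extracellular matrix had the lowest median among the lists with at least 6 tested members. Of 25 tested matrix glycoprotein and proteoglycan genes 18 were lower (72%) and 1, the fibronectin gene FN1 (0.58), was higher (4%). Over all genes the shares were 15.1% and 14.6%. The median log2 fold change of the list was -1.34 against 0.00 over all genes. Of 18 falls 12 were at least 2-fold, and 1 had the other set 3 and set 2 libraries apart the same way. Against the empty vector 10 of the 25 were higher and 2 lower with A457_G461del, and 18 higher and 2 lower with ARID1B WT. Both comparisons use the same empty vector libraries. Over all genes, A457_G461del had 2718 genes above the empty vector (19.1%) and 2827 below (19.9%), and ARID1B WT had 2736 above (19.2%) and 3393 below (23.9%). The balance for ARID1B WT turned when only its own and the empty vector libraries were fitted, to 1387 above and 753 below. Without ARID1B WT replicate 2 it was 1999 above and 1958 below, and without its replicate 1 2080 above and 2065 below.

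ELN, which encodes elastin, the protein of elastic fibres, was read at 19.6 and 21.5 CPM with A457_G461del and at 431 and 451 CPM with ARID1B WT. The groups were far apart, and the fall was to 4.66% of ARID1B WT (-4.42 ± 0.16, adjusted p = 4.21e-13). It was not a return to the empty vector, which held 0.0899 to 0.279 CPM. M2 held 333 ± 10.0 CPM, Block13del 9.03 ± 2.60 and Block9del 0.789 ± 0.255. A457_G461del was below M2 (-4.02, adjusted p = 1.8e-12) and above Block13del (1.17, adjusted p = 0.00012).

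BGN, the gene of the small proteoglycan biglycan that binds collagen, was nearly lost. It was read at 0.163 and 0.196 CPM with A457_G461del, on 9 reads in all, and at 7.58 and 8.21 CPM with ARID1B WT (-5.42 ± 0.41, adjusted p = 2.74e-08). M2 kept 5.57 CPM, and the empty vector held at most 0.0899. LRRC15, a leucine-rich repeat membrane gene known from fibroblasts of tumours, was read at 7.99 and 8.34 CPM against 45.7 and 48.4 CPM (-2.53 ± 0.14, adjusted p = 2.05e-10). M2 held 45.8 CPM of LRRC15, and its difference from ARID1B WT was not tested. MATN2, the gene of the matrix adaptor matrilin-2, was at 37.2 and 38.2 CPM against 92.1 and 90.5 CPM (-1.27 ± 0.09).

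Of 22 tested collagens 12 were lower (54.5%) and 1, COL7A1 (0.78), was higher (4.55%), with a median of -0.71. Over all genes 15.1% were lower and 14.6% higher. None of the collagen falls had the sets apart the same way. That check can hardly count collagens near 0 in empty vector replicates 3 and 4, such as COL12A1 at 0.131 and 0.112 CPM. COL12A1, a collagen that decorates fibrils, was read at 2.0 and 2.08 CPM with A457_G461del and at 26.3 and 26.9 CPM with ARID1B WT (-3.70 ± 0.14, adjusted p = 9.74e-13). COL16A1, also of the fibril-associated class, stood at 3.38 and 3.41 CPM against 27.9 and 27.7 CPM (-3.03 ± 0.17). The fibrillar collagen gene COL1A1 stood at 3.67 and 3.88 CPM against 25.2 and 29 CPM (-2.84 ± 0.16), with 0.390 to 1.18 CPM in the empty vector. The abundant fibrillar collagens COL1A2 (2438 and 2425 CPM against 3425 and 3515) and COL3A1 (344 and 330 CPM against 530 and 531) fell by less, to 70.1% and 63.5% of ARID1B WT. Leaving out A457_G461del replicate 2 left 7 collagens lower and none higher.

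Laminins build the basement membrane, and 5 of 8 tested chains were lower (62.5%) and none higher, beside 15.1% and 14.6% of all genes. LAMB1, a beta chain, was read at 55.1 and 53.4 CPM with A457_G461del and at 158 and 161 CPM with ARID1B WT (-1.56 ± 0.07, adjusted p = 2.19e-11). M2 held 168 CPM and the empty vector 7.59 to 8.32 CPM, so A457_G461del lay between. LAMB3, the beta chain of the laminin under epithelia, stood at 1.55 and 1.57 CPM against 14.0 and 13.3 CPM (-3.12 ± 0.22). The abundant chains LAMC1 and LAMB2 fell to 68.5% and 76.0% of ARID1B WT.

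Of 19 tested matrix proteases and inhibitors 8 were lower (42.1%) and 1 higher (5.26%), beside 15.1% and 14.6% of all genes. MMP2, the gelatinase that cuts basement membrane collagen, was read at 23.8 and 25.6 CPM with A457_G461del and at 224 and 230 CPM with ARID1B WT. The groups did not overlap, and A457_G461del kept 10.9% of the WT level (-3.20 ± 0.13, adjusted p = 1.49e-12). M2 held 138 ± 2.44 CPM, Block13del 9.16 ± 0.420, Block9del 2.78 ± 0.427 and the empty vector 0.0557 to 0.180 CPM. PLAU, the urokinase gene, stood at 7.78 and 8.15 CPM against 20.6 and 22.1 CPM (-1.42 ± 0.14). LOXL2, which crosslinks collagen and elastin, stood at 35.5 and 36.7 CPM against 141 and 149 CPM (-2.0 ± 0.10).

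**Figure D2:**
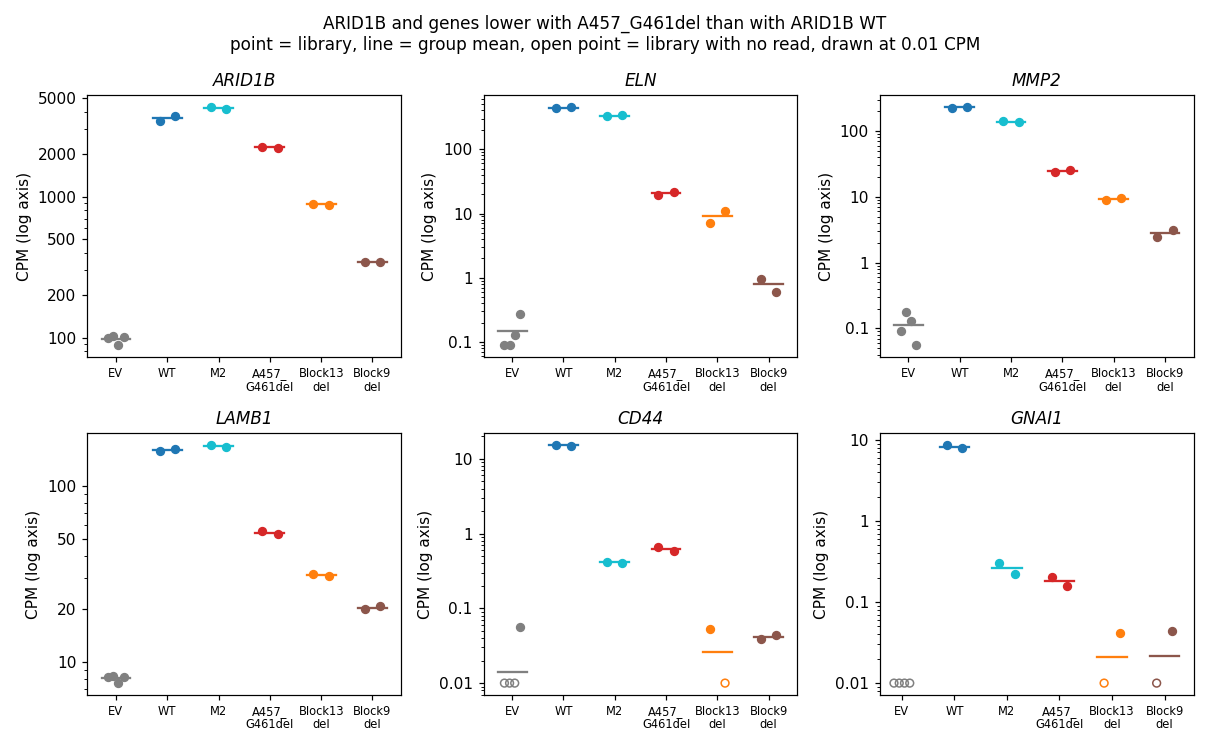
Each panel shows 1 gene, with CPM on a log axis and 1 point per library for the empty vector (EV, 4 libraries) and the 5 ARID1B constructs (2 each). Lines are group means and open points are libraries with no read, drawn at 0.01 CPM. ELN, MMP2 and LAMB1 keep most of the WT level with M2 and less with A457_G461del, whereas CD44 and GNAI1 are low with both.

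Some genes of adhesion and cell shape were lower as well. Of 16 tested integrins 5 were lower (31.2%), 11 were not called and none was higher, beside 15.1% lower and 14.6% higher of all genes. Fewer integrins were lower without any 1 of the 4 libraries. ITGA5, the fibronectin receptor chain, was read at 2.89 and 2.82 CPM against 14.2 and 12.6 CPM (-2.22 ± 0.17, adjusted p = 1.18e-08). ITGB5, which pairs with the alpha V chain, was at 216 and 215 CPM against 401 and 402 CPM (-0.90 ± 0.07). Of 18 tested cadherins and protocadherins 7 were lower (38.9%), among them the large cadherin gene FAT4 (-1.21 ± 0.19), 11 were not called and none was higher. Of 13 tested contractile genes of smooth muscle 8 were lower (61.5%) and none higher, with the tropomyosin gene TPM1 at 111 and 107 CPM against 193 and 206 CPM (-0.87 ± 0.10). That count was 5 without A457_G461del replicate 2 or without ARID1B WT replicate 2.

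Some mesenchymal and some epithelial markers were lower. Of 8 tested mesenchymal markers 5 were lower (62.5%), 3 were not called and none was higher, with a median of -0.94. Over all genes 15.1% were lower and 14.6% higher. CD44, the hyaluronan receptor gene, was read at 0.652 and 0.588 CPM with A457_G461del and at 15.3 and 15.0 CPM with ARID1B WT (-4.60 ± 0.26, adjusted p = 2.23e-09). PDGFRB, the platelet-derived growth factor receptor of fibroblasts and pericytes, stood at 5.62 and 4.70 CPM against 19.4 and 19.0 CPM (-1.9 ± 0.13). SNAI2, a repressor of epithelial genes, stood at 0.163 and 0.274 CPM against 1.59 and 2.97 CPM (-3.36 ± 0.52). Of 15 tested epithelial markers 6 were lower (40%), 9 were not called and none was higher. The keratin gene KRT18 stood at 21.1 and 21.0 CPM against 48.0 and 46.0 CPM (-1.16 ± 0.09). KRT7, a keratin of simple epithelia, stood at 0.652 and 0.940 CPM against 6.21 and 5.24 CPM (-2.83 ± 0.34).

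Of 20 tested targets of the coactivator YAP and its TEAD partners 8 were lower (40%) and none higher, with a median of -0.43. Over all genes 15.1% were lower and 14.6% higher. AXL, a receptor kinase gene, was read at 6.44 and 6.85 CPM against 25.6 and 25.7 CPM (-1.95 ± 0.12, adjusted p = 3.82e-10). ANKRD1, a stretch-responsive nuclear factor gene, stood at 3.42 and 3.41 CPM against 7.47 and 8.35 CPM (-1.21 ± 0.14), and M2 held 31.7 CPM. Of 13 tested genes of the AP-1 family 3 (23.1%) were lower and none higher, beside 15.1% and 14.6% of all genes. JUND was among the 3 (-0.50 ± 0.16, adjusted p = 0.023). None of the 13 was called without A457_G461del replicate 1 or without ARID1B WT replicate 1, and 1 without A457_G461del replicate 2 or without ARID1B WT replicate 2. AP-1 is the JUN and FOS dimer that opens many enhancers together with BAF.

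Developmental signalling genes were lower in part. Of 28 tested axon guidance ligands and receptors 16 were lower (57.1%) and 2 higher (7.14%), beside 15.1% and 14.6% of all genes. Both counts were smaller without A457_G461del replicate 2 or without ARID1B WT replicate 2. The semaphorin gene SEMA5B, a guidance ligand, was read at 2.28 and 2.78 CPM against 16.3 and 17.6 CPM (-2.74 ± 0.24, adjusted p = 4.53e-07) and had no read with the empty vector. SEMA3F, a secreted repellent, stood at 115 and 116 CPM against 198 and 192 CPM (-0.76 ± 0.06). Of 30 tested WNT pathway genes 10 were lower (33.3%) and 1 higher (3.33%). The ligand gene WNT4 stood at 1.59 and 1.76 CPM against 10.4 and 10.9 CPM (-2.67 ± 0.20), and WNT6 at 1.26 and 1.84 CPM against 9.29 and 7.93 CPM (-2.46 ± 0.26). Of 29 tested genes of the TGF-beta and BMP pathway 9 were lower (31.0%) and 5 higher (17.2%), beside 15.1% and 14.6% of all genes. The antagonist gene FSTL1 (203 and 211 CPM against 548 and 532) was lower, and ID2, a BMP target, was higher (78.8 and 81.7 CPM against 53.7 and 54.0).

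Some neuronal and ion channel genes were also lower. Of 11 tested neuronal genes 5 were lower (45.5%), 6 were not called and none was higher, beside 15.1% lower and 14.6% higher of all genes. MAP2, a dendrite microtubule gene, was read at 0.204 and 0.157 CPM with A457_G461del and at 4.18 and 4.01 CPM with ARID1B WT (-4.47 ± 0.45, adjusted p = 1.69e-06), and had no read with the empty vector. DCX, the microtubule gene of migrating neurons, fell by less, from 14.0 and 13.8 CPM to 7.21 and 6.38 CPM (-1.03 ± 0.20), and also had no read with the empty vector. The adhesion gene L1CAM stood at 1.22 and 1.57 CPM against 6.65 and 7.46 CPM (-2.33 ± 0.20). Of 23 tested voltage-gated channel subunits 9 were lower (39.1%), 14 were not called and none was higher. CACNG4, a transmembrane regulatory subunit, stood at 1.34 and 1.41 CPM against 19.8 and 18.8 CPM (-3.80 ± 0.28). RUNX2, the transcription factor of bone, stood at 2.04 and 1.92 CPM against 9.07 and 9.44 CPM (-2.22 ± 0.24).

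The single largest fall among the genes chosen by the naming rule was of GNAI1, an inhibitory G protein subunit, at 0.204 and 0.157 CPM against 8.63 and 7.83 CPM (-5.47 ± 0.42, adjusted p = 3.23e-07). SIGLEC1, a sialic acid receptor known from macrophages, stood at 0.163 and 0.157 CPM against 5.60 and 5.62 CPM (-5.09 ± 0.41). The proteoglycan gene VCAN stood at 0.204 and 0.0392 CPM against 3.30 and 2.60 CPM (-4.55 ± 0.52). IL13RA2, a decoy receptor for interleukin 13, stood at 2.16 and 2.19 CPM against 35.5 and 31.8 CPM (-3.95 ± 0.24). These 4 rested on 6 to 109 reads over the A457_G461del libraries. Their groups do not overlap by the rule that named them. No empty vector library held more than 0.363 CPM of any of the 4.

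The 12 largest falls differed in how M2 stood, which was looked at after the values were seen. ELN, BGN, SIGLEC1 and CACNG4 were lower with A457_G461del than with M2 in a direct test, with adjusted p = 1.8e-12 for ELN, 1.5e-07 for BGN, 3.2e-08 for SIGLEC1 and 0.00068 for CACNG4, and so was SAA1, an acute phase gene (adjusted p = 0.0022). GNAI1, CD44, VCAN, MAP2, IL13RA2, the basement membrane gene FREM3 and the microfibril gene MFAP2 did not pass that test, with adjusted p from 0.092 for IL13RA2 to 0.56 for GNAI1. For CD44 the A457_G461del to M2 log2 fold change was 0.58 with M2 at 0.411 CPM. Over all genes A457_G461del had 1523 genes above and 1924 below M2, 3447 in all (24.2%). M2 lies in set 2 like ARID1B WT, so set and construct cannot be told apart here either.

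Within set 3, A457_G461del stood above Block13del. Between them 510 genes were higher and 269 lower, 779 in all (5.48%), with 114 higher and 4 lower at least 2-fold. Calls dropped to 317 without A457_G461del replicate 1 and 316 without A457_G461del replicate 2. MMP2 was higher (1.43, adjusted p = 1.5e-06), as were LAMB1 (0.80, adjusted p = 1.3e-06), the integrin gene ITGB5 (0.87, adjusted p = 5.2e-07) and LOXL2 (1.08, adjusted p = 1.1e-06). ARID1B reads differed in the same direction (1.34, adjusted p = 2.6e-08), and the part of that difference was not tested. BGN (0.61, adjusted p = 0.79) and SIGLEC1 (-0.02, adjusted p = 0.999) did not pass the test.

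To describe the response with genes not chosen on these 4 libraries, genes were taken that M2 raised at least 2-fold above empty vector replicates 3 and 4. There were 1118 of them (7.86% of the tested genes). Of these, 566 (50.6%) were lower with A457_G461del than with ARID1B WT and 18 (1.61%) higher, beside 15.1% and 14.6% of all genes. At least 2-fold lower were 386 (34.5%), beside 4.25% of all genes, and the median was -0.77. The same genes were compared with empty vector replicates 1 and 2, which had no part in the choice. There 624 (55.8%) were above and 145 (13%) below with A457_G461del, beside 4538 (31.9%) and 4471 (31.4%) of all genes. The median against these replicates was 0.91.

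Genes raised at least 2-fold by ARID1A WT above empty vector replicates 1 and 2 gave like values. There were 1427 of them (10.0% of the tested genes), and 681 (47.7%) were lower with A457_G461del than with ARID1B WT, 450 (31.5%) at least 2-fold, and 13 (0.911%) higher. Against empty vector replicates 3 and 4, 723 (50.7%) were above and 93 (6.52%) below with A457_G461del, beside 3379 (23.8%) and 3421 (24.1%) of all genes. Genes lowered at least 2-fold by these constructs were taken the same way. Of 351 lowered by M2, 87 (24.8%) were lower and 19 (5.41%) higher with A457_G461del than with ARID1B WT, beside 15.1% and 14.6% of all genes. Against empty vector replicates 1 and 2, 192 (54.7%) were below and 47 (13.4%) above, beside 31.4% and 31.9% of all genes. Of 552 lowered by ARID1A WT, 57 (10.3%) were lower and 48 (8.7%) higher, both below the shares over all genes. Against empty vector replicates 3 and 4, 186 (33.7%) were below and 29 (5.25%) above, beside 24.1% and 23.8% of all genes. Whether raised and lowered genes differ in these shares was not tested.

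Targets of the stress factor ATF4 and of the unfolded protein response, which refill amino acid pools and chaperones under stress, fell together. Of 31 tested genes 25 were lower and none higher, with a median of -0.90, and 12 were at least 2-fold lower. ASNS, asparagine synthetase, was read at 108 and 107 CPM with A457_G461del and at 404 and 377 CPM with ARID1B WT (-1.85 ± 0.06, adjusted p = 2.44e-13). The empty vector held 730 to 811 CPM, above both, and M2 held 91.5 CPM. NUPR1, a stress-induced chromatin protein gene, stood at 11.2 and 11.9 CPM against 62.5 and 68.9 CPM (-2.51 ± 0.12), and CHAC1, which degrades glutathione, at 6.52 and 6.66 CPM against 35.1 and 34.0 CPM (-2.39 ± 0.12). ALDH1L2, a mitochondrial folate enzyme, stood at 39.6 and 36.1 CPM against 139 and 151 CPM (-1.94 ± 0.10). Against the empty vector 27 of 31 were lower with A457_G461del and 19 lower with 2 higher with ARID1B WT. The list summed to 7810 to 7820 CPM with A457_G461del, 14100 CPM in both ARID1B WT libraries and 13500 to 18400 CPM in the empty vector, but to 7290 to 18400 CPM over the other set 2 libraries.

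Genes of DNA replication and mitosis were higher with A457_G461del. Of 40 tested genes 37 were higher and none lower, with a median of 0.79. CDK1, the mitotic kinase, was read at 134 and 141 CPM with A457_G461del and at 67.6 and 63.2 CPM with ARID1B WT (1.07 ± 0.07, adjusted p = 1.08e-09). The empty vector (88.7 to 95.3 CPM) and M2 (102 CPM) lay between. The replicative helicase gene MCM7 stood at 410 and 420 CPM against 260 and 258 CPM (0.68 ± 0.07), and the centromere histone gene CENPA at 20.5 and 20.9 CPM against 10.3 and 10.2 CPM (1.01 ± 0.13). Of the 37, 4 had the other set 3 and set 2 libraries apart the same way, CENPA among them. The list summed to 6450 CPM in both A457_G461del libraries, within the 6010 to 7630 CPM of the other set 3 libraries, and to 3700 to 3740 CPM with ARID1B WT, below the 5190 to 6630 CPM of the other set 2 libraries. The ARID1B WT libraries thus stood low among the libraries of their own set. Against the empty vector 23 of 40 were higher and none lower with A457_G461del, and 18 lower and none higher with ARID1B WT. The count was 25 without either A457_G461del replicate, 23 without ARID1B WT replicate 1 and 24 without ARID1B WT replicate 2.

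**Figure D3:**
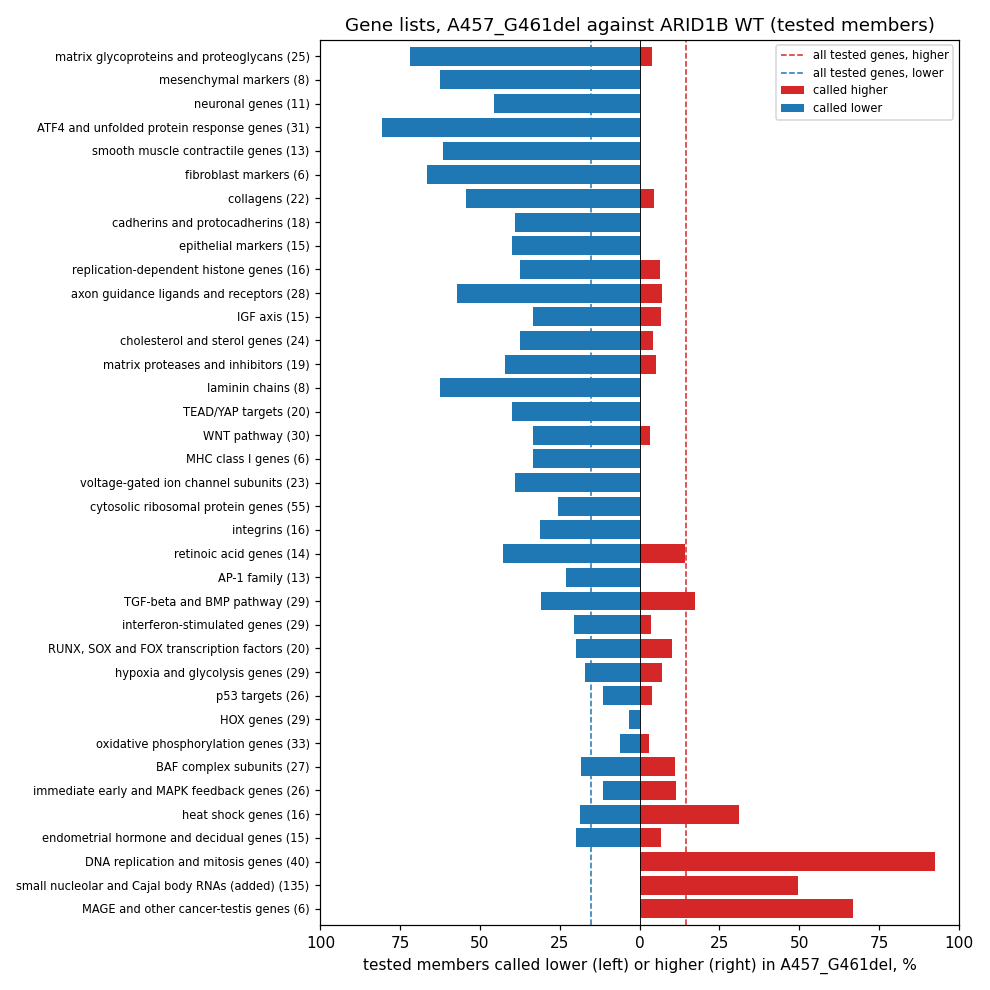
Bars give the share of tested members of each gene list with at least 6 tested members called lower (left, blue) or higher (right, red) with A457_G461del than with ARID1B WT, with the number tested in parentheses. Dashed lines are the shares over all tested genes, 15.1% lower and 14.6% higher. Among these, the ATF4 and matrix glycoprotein lists extend farthest left, and the replication and mitosis list farthest right.

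Among the largest rises were genes that stood below the empty vector with ARID1B WT. PRLR, the prolactin receptor gene, was read at 2.57 and 2.78 CPM with A457_G461del and on 1 read in the ARID1B WT libraries, a ratio of 105 (95% counting interval 18.6 to 4194, adjusted p = 6.42e-05). The empty vector held 4.91 to 14.5 CPM, so A457_G461del lay below it (-1.87, adjusted p = 0.00037). Of 6 tested cancer-testis genes, which are normally silent outside the germline, 4 were higher and none lower. MAGEC2 stood at 2.32 and 2.23 CPM against 0.110 and 0.0944 CPM (4.41 ± 0.71, adjusted p = 0.000114), and MAGEC1 at 3.87 and 4.11 CPM against 0.494 and 0.519 CPM (2.96 ± 0.48). Neither passed the test against the 4 empty vector libraries with A457_G461del (adjusted p = 0.073 and adjusted p = 0.29), but these libraries differed, with MAGEC2 at 5.82 CPM in replicates 1 and 2 and 1.96 CPM in replicates 3 and 4. Against replicates 1 and 2 alone both were lower with A457_G461del (MAGEC2 -1.35, adjusted p = 2.1e-08, and MAGEC1 -0.90, adjusted p = 1.24e-05). Against replicates 3 and 4 alone neither passed (0.22, adjusted p = 0.429, and 0.42, adjusted p = 0.0787). MAGEA12 gave a ratio of 14.4 (counting interval 4.68 to 72.1) on 3 reads with ARID1B WT. The fourth, MAGEA4 (0.26 ± 0.09), passed in 1 strand column only.

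DKK1, a secreted WNT inhibitor gene, was read at 4.48 and 4.58 CPM against 0.769 and 0.614 CPM (2.71 ± 0.24, adjusted p = 1.09e-07), with 7.19 to 8.36 CPM in the empty vector. GRB10, an adaptor that dampens insulin and IGF signalling, stood at 4.12 and 3.52 CPM against 1.32 and 1.27 CPM (1.56 ± 0.31). FXYD6, a sodium pump regulator gene, stood at 3.34 and 2.70 CPM against 0.659 and 0.519 CPM (2.36 ± 0.24). MALAT1, a nuclear noncoding RNA, was read at 432 CPM in both A457_G461del libraries and at 107 and 125 CPM with ARID1B WT (1.9 ± 0.48, adjusted p = 0.00544). There the sets were apart the same way, with 396 CPM in Block13del, 384 CPM in Block9del and 110 CPM in M2.

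**Figure D4:**
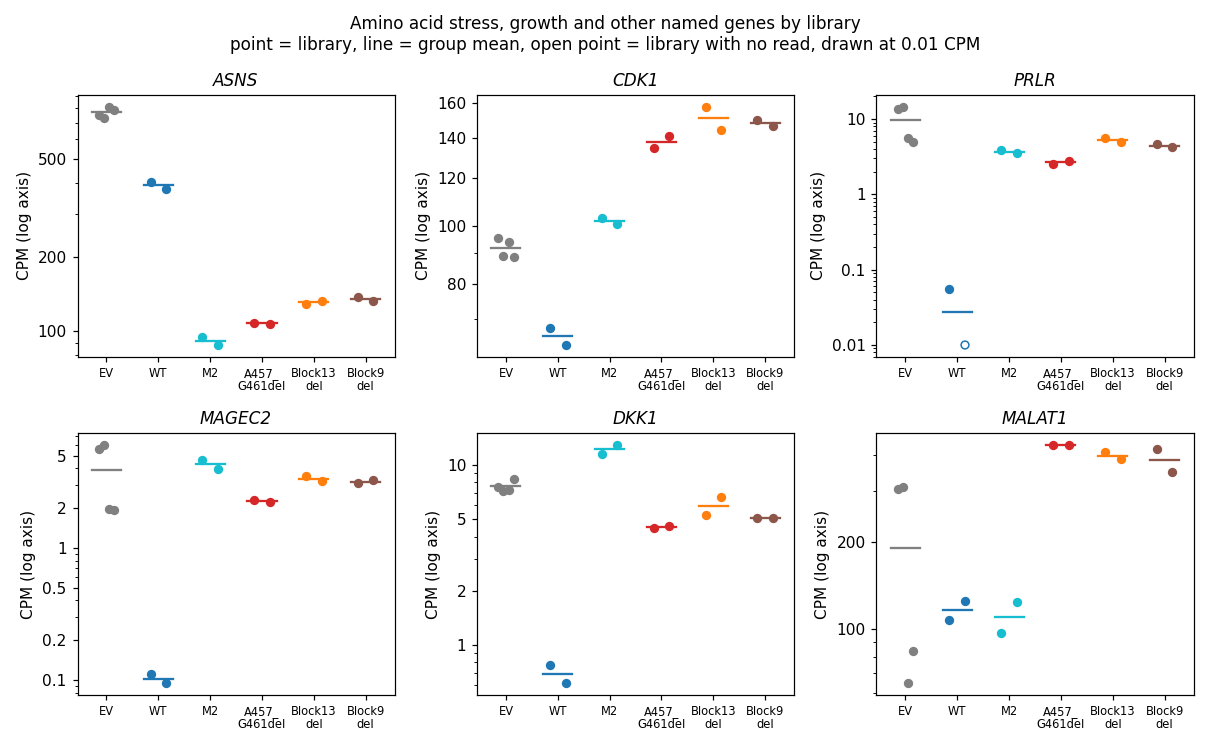
Each panel shows 1 gene, with CPM on a log axis, points for libraries, lines for group means and open points at 0.01 CPM for libraries with no read. ARID1B WT is lowest for CDK1, PRLR, MAGEC2 and DKK1, ASNS is low with all 4 deletions, and MALAT1 is high with the 3 deletions of set 3.

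Small nucleolar and Cajal body RNAs, which guide RNA modification and are not polyadenylated, were counted after the values were seen. Of 135 tested 67 were higher and none lower, with a median of 1.07, and 20 of the 67 had the sets apart the same way. Against the empty vector 44 were higher with A457_G461del and 28 lower with ARID1B WT. The share of reads that name no gene was also higher with A457_G461del, as given above, and its part in this was not tested. Of 16 tested replication-dependent histone genes, whose transcripts mostly but not always lack a poly(A) tail, 6 were lower (37.5%) and 1 higher (6.25%). Over all genes these shares were 15.1% and 14.6%. HIST1H2BK stood at 12.8 and 12.1 CPM against 33.6 and 32.5 CPM (-1.40 ± 0.14), and in it the sets were apart the same way.

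Of the 27 tested subunit genes of BAF complexes 3 were higher and 5 lower, with a median of 0.04, or 11.1% and 18.5% beside the 14.6% and 15.1% over all genes. The 8 calls were 5 without A457_G461del replicate 2, without ARID1B WT replicate 1 or without ARID1B WT replicate 2. Beside ARID1B the falls included SMARCA2, a catalytic ATPase, at 33.9 and 34.1 CPM against 48.4 and 49.0 CPM (-0.52 ± 0.07, adjusted p = 2.73e-05). GLTSCR1L, a subunit of the noncanonical complex, stood at 25.4 and 24.8 CPM against 33.7 and 35.2 CPM (-0.46 ± 0.10). The rises were of BRD9 (0.26 ± 0.05), ACTL6A (0.28 ± 0.07) and DPF1 (0.62 ± 0.21, adjusted p = 0.033). SMARCA4, the other ATPase, did not pass the test (0.19 ± 0.11, adjusted p = 0.198). The empty vector held 344 CPM of it in replicates 1 and 2 and 458 CPM in replicates 3 and 4. The fit took these as 1 group, and their gap adds to this standard error. For A457_G461del against the empty vector the standard error was 0.093, and 0.042 against replicates 1 and 2 as a group of their own.

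Promoters of the genes that fell were searched for 2 motifs in the 250 bases before and 50 after each RefSeq start of GRCh38.p14, on both strands. Of the 574 genes at least 2-fold lower in both strand columns 374 had an entry, with 588 promoters. The AP-1 motif TGANTCA was in 62 of them (10.5%), against 5.35% of promoters of all tested genes and 6 of 122 (4.92%) of those at least 2-fold higher. Over all 35116 promoters, of tested genes or not, the share was 7.71%. The TEAD motif GGAATG was in 76 (12.9%), against 11.7% for all tested genes and 14.0% of all promoters. Not all of the 12 largest falls had a promoter entry, and ELN, SIGLEC1, SAA1 and IL13RA2 had none. Among the entries found, 1 of the microfibril gene MFAP2 held the AP-1 motif. It is shown for its 2 matches, in capitals, in the 250 bases before the start (chr1:16981584-16981833, minus strand).
MFAP2: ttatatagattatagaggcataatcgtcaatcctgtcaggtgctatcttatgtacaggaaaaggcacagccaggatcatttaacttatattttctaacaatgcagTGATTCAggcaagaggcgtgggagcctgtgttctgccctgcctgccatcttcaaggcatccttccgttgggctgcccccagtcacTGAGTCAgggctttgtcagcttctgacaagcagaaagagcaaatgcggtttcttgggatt
MFAP2 was read at 0.122 and 0.235 CPM with A457_G461del and at 2.36 and 3.07 CPM with ARID1B WT (-3.88 ± 0.33, adjusted p = 7.77e-08). A match describes letters in these windows, and binding was not analysed here.

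Some differences depended on the strand column. Of the 826 calls at least 2-fold, 48 did not keep their call or their size with strand ignored. FLRT1, an adhesion gene, differed by -4.04 on the log2 scale and by -0.51 with strand ignored. SERPINF1, an antiangiogenic serpin gene, differed by -3.70 and by -0.24, and SEMA4G by -1.10 and by 0.31. These 3 were picked after their values were seen. TYMS, of the replication list, kept its size (1.03 and 0.85) but not its call with strand ignored (adjusted p = 0.0604).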

How the data were processed

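Polyadenylated RNA of 28 AN3CA libraries was sequenced, and the values deposited by the authors are raw read counts for 26346 gene symbols, in 3 strand columns and with no normalization. Per the submitters' processing notes, bcl2fastq, STAR 2.5.2b and Bowtie2 2.29 were used on hg19. Roles and annotation are not given in the sources used here. Column 4 (opposite strand) was tested and column 2 (unstranded) checked, and the 4 totals that name no gene were left out. One edgeR 4.0.16 quasi-likelihood fit (R 4.3.3, filterByExpr, TMM scaling, 13 groups) covered all libraries, with two-sided tests and a Benjamini-Hochberg adjusted p under 0.05 over 14220 genes. The 4 empty vector libraries formed 1 group, although replicates 1 and 2 lie in another strand set than replicates 3 and 4. A difference between these pairs thus entered the spread used for every comparison in that fit. Comparisons with 1 pair alone used a fit with the pairs as separate groups. A gene held in both strand columns if called the same way within a log2 difference of 1. Library depth was 16.6 to 27.9 M gene reads, and genes under 1 CPM are the least precise.

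Named genes were the 12 largest rises and falls called in both columns without overlap and with log2 CPM of at least 1 in the higher group, and 8 each way among genes whose strand sets overlap. Symbols starting with LOC, LINC, MIR or SNOR, antisense and dotted names were left out. Up to 4 called members of each of 38 gene lists with the smallest p, the BAF subunits and MMP2, LAMB1, COL1A1 and ELN were added. Of 967 listed genes 963 were in the files. Members and lists were chosen with earlier results of these data known. Intervals for genes with 1 to 3 reads are 95% binomial and cover counting error only. Alternatives were DESeq2 1.42.0, RLE factors, filters, subsets of libraries, a replicate block and dropping each library in turn. Simulated data were used to check the fit. RefSeq and GENCODE sequences are of GRCh38, not the build of the counts, and were matched by symbol.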

Additional observations from a re-analysis of the deposited data

Results flagged for a closer look

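LAMB1 stood apart in 1 of the 4 empty vector libraries, at 7.59 CPM in replicate 3 against 8.19 to 8.32 CPM in the others (gap over range 0.833, just past Dixon's 95% critical value). Among 126 named genes with a mean of at least 1 CPM in the empty vector it was the only one. Chance gives about 5% of them only if the 4 libraries are alike. Replicates 1 and 2 lie in another strand set than replicates 3 and 4. Where these pairs differ, a single library can hardly stand apart, so the count says little about the libraries. Groups of 2 libraries could not be tested this way.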

How the results depend on the processing

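No named gene changed direction under an alternative where it was called in the main fit or in that alternative. Sign changes of genes called in neither were not counted, such as PHF10 (0.001, and -0.091 with strand ignored). Of 2055 values for 174 named genes 1942 stayed called or stayed uncalled, 88 lost the call and 25 gained it, with MAGEA4 and BCL7A losing it most often. Counts of calls depended on which libraries shared the estimate of spread. With only the libraries of the groups compared they were 8200 for A457_G461del against ARID1B WT (7954 in both strand columns), 1587 for A457_G461del and 2140 for ARID1B WT against the empty vector (64.8% of the latter higher, against 44.6% with all libraries), 8193 against M2 and 3058 against Block13del. With only sets 2 and 3 they were 6647 (6075 in both columns), 6233 against M2 and 2422 against Block13del. The same-numbered libraries did not deviate together (correlation -0.043 over 11502 genes), so replicate numbers name libraries only. With a replicate block the counts were 6936 (6641 in both columns), 8991 against the empty vector, 6612 against M2 and 2784 against Block13del. Requiring an average log2 CPM of at least 1 left 3772 calls (1937 higher and 1835 lower), against 4216 in the main fit. At least 2-fold it left 353 calls (99 higher and 254 lower), against 826. Against empty vector replicates 1 and 2 alone A457_G461del had 9009 calls. Leaving out 1 library gave 2592 to 2841 calls against ARID1B WT, 2435 to 2674 in both columns, 3303 to 3327 against the empty vector, 3957 to 4145 for ARID1B WT against the empty vector, 1911 to 1944 against M2 and 316 to 317 against Block13del. RLE factors moved the median log2 fold change of all genes from 0.004 to -0.021. The calls against ARID1B WT, 2071 higher and 2145 lower in the main fit, became 1853 and 2356 with RLE factors. They were 1840 and 2344 with DESeq2 and 1682 and 2095 with no filter on low counts. Requiring an average log2 CPM of at least 1 moved this balance the other way, as given above. The causes were not tested. Another 2 alternatives were chosen after seeing the data. Without genes whose other set 2 and 3 libraries do not overlap, 3768 calls were left, 750 at least 2-fold, and without small nucleolar RNAs, histones and nuclear RNAs 4141 and 762. Against Block13del 81.2% of calls were higher with no filter on low counts, against 65.5% with it. Depth limits genes under 1 CPM most.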

Other observations

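Some genes in groups outside the matrix and growth genes also differed. Of 14 tested retinoic acid genes 6 were lower (42.9%) and 2 higher (14.3%) with A457_G461del, beside 15.1% and 14.6% of all genes. Without ARID1B WT replicate 2, 4 were lower and none higher, without ARID1B WT replicate 1 6 were lower and none higher, and without either A457_G461del replicate 4 were lower and 1 higher. ALDH1A1, which makes retinoic acid, was read at 0.896 and 0.979 CPM against 5.38 and 6.70 CPM with ARID1B WT (-2.68 ± 0.37), and STRA6, a retinol transporter gene, at 2.20 and 2.12 CPM against 6.70 and 7.27 CPM (-1.69 ± 0.25). Of 15 tested genes of the IGF axis 5 were lower (33.3%) and 1 higher (6.67%). The binding protein gene IGFBP5 stood at 1.14 and 0.627 CPM against 3.57 and 4.01 CPM (-2.10 ± 0.36). PLK2, a kinase gene among the p53 targets, stood at 10.2 and 11.7 CPM against 121 and 119 CPM (-3.45 ± 0.32). However, 22 of the 26 tested p53 targets were not called. The 3 lower (11.5%) and 1 higher (3.85%) were below the shares over all genes. The 4 p53 target calls were 2 without A457_G461del replicate 2, without ARID1B WT replicate 1 or without ARID1B WT replicate 2.

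Interferon-stimulated genes did not move as a group, with 1 higher (3.45%) and 6 lower (20.7%) of 29, beside 14.6% and 15.1% of all genes. IFITM2, which restricts virus entry, was read at 2.98 and 2.19 CPM against 14.7 and 16.1 CPM (-2.57 ± 0.20), and OAS3, a sensor of double-stranded RNA, at 25.3 and 27.1 CPM against 15.1 and 14.2 CPM (0.84 ± 0.10). Of 16 tested heat shock genes 5 were higher (31.2%) and 3 lower (18.8%). The mitochondrial chaperonin gene HSPE1 stood at 84.2 and 83.6 CPM against 43.4 and 41.2 CPM (0.99 ± 0.13). In it the other set 3 and set 2 libraries were apart the same way. Of 29 tested HOX genes 1 was lower, HOXB9 (-0.44 ± 0.14), and none higher, and none was called without either A457_G461del replicate or without ARID1B WT replicate 2. Of 33 tested oxidative phosphorylation genes 1 was higher and 2 lower, and the 2 falls were lost without any 1 of the 4 libraries.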
